A study of Mus musculus with 23 samples.

Results

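The Zbtb family was taken as the genes whose symbol in the GENCODE vM1 annotation is Zbtb followed by a number, with or without a letter after it. The rule gave 37 rows under 36 symbols, of 37310 annotated genes, and 36 of the rows held reads in the RNA-seq libraries. The remaining row is a second entry for *Zbtb20* (ENSMUSG00000036279.6) that lies wholly inside the exons of the first (ENSMUSG00000022708.10) and had 0 reads in all 9 libraries. *Zbtb11*, the gene deleted in the study, is not among them: its transcript is filed under the ribosomal protein gene *Rpl24* in this annotation, so it has no count of its own.

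RNA-seq was measured in mouse embryonic stem cells (ESCs) of the E14 line, 48 h after treatment, in 3 groups of 3 replicates. The EtOH control and the *Zbtb11* KO are the same cells, Zbtb11 lox/lox with an ERt2-Cre transgene in *Rosa26*, given the vehicle ethanol or 250 nM 4-hydroxytamoxifen (4OHT), which lets the ERt2-Cre recombinase enter the nucleus and delete exon 3 of *Zbtb11*. The 4OHT control is Zbtb11 WT/WT and Rosa26 WT, carries no Cre, and received 250 nM 4OHT. It therefore differs from the EtOH control in genotype, in cell line and in drug, and these cannot be told apart; the lox/lox line was itself obtained by cloning single cells. ChIP-seq was measured with an antibody to Zbtb11 in 4 libraries of wild-type ESCs, and with an antibody to the FLAG tag in 3 libraries of Zbtb11 FLAG/FLAG cells, with 2 libraries of untagged cells as FLAG control.

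ZBTB proteins carry an N-terminal BTB domain, through which they pair with each other and recruit co-repressors such as NCoR and histone deacetylases, and C-terminal zinc fingers, through which they bind DNA. Most of those studied act as repressors, and several are known as switches of blood cell fate, as readers of methylated DNA or as telomere-binding factors. Zbtb11 is one of this family, but the study reports that it appears to activate transcription, unlike most of those studied. The comparisons below ask which of its relatives are expressed in ESCs, which have Zbtb11 at their promoters, and which change when *Zbtb11* is deleted.

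The libraries held 14301457 to 23876604 reads on genes, and the family took 747 to 849 CPM, the unit in which counts are scaled to the total of their library. The ESC markers were at 4412 to 5330 normalised CPM summed over 9 genes, with *Pou5f1* at 604.9 to 838.8 CPM. Of 7 fibroblast markers *Lum* was at 0 in every library, and the 7 together summed to 16.0 to 26.6 CPM; 6 markers of differentiated derivatives summed to 13.0 to 22.6 CPM. Replicate 1 stood apart from replicates 2 and 3 in all 3 groups. The final gene list of the study was made without a replicate that its methods do not number. Tests here used replicates 2 and 3, and fits with all 3 replicates, with and without the replicate number as a block, are given beside them. Where nothing shows separate cultures, p-values measure only the spread between these samples.

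The deletion itself could not be checked in these counts. The *Rpl24* row (ENSMUSG00000022601.9, NCBIM37, chr16:55966388-56009026, + strand), which pools *Rpl24* and the *Zbtb11* transcript, had 354.4, 372.6 and 385.0 CPM in the EtOH control, 362.4, 357.1 and 362.5 CPM in the *Zbtb11* KO and 370.4, 368.5 and 381.1 CPM in the 4OHT control. The *Zbtb11* KO and EtOH control ranges overlapped, and the log2 fold change was -0.08 ± 0.06 (SE; edgeR quasi-likelihood test, adjusted p = 0.946).

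Zbtb11 occupied the promoters of its relatives unevenly, and 3 of them were among its most heavily covered sites (Zbtb11-high, as set out below). These were 3 of 34 tested members (8.82%), beside 870 of 14172 tested genes (6.14%). A promoter was 2 kb upstream to 500 bases downstream of an annotated transcript start, and the peaks were the 7500 consensus peaks found with both antibodies, each with a deposited normalised coverage. Peaks above 308.9, the upper quartile plus 1.5 interquartile ranges, were called Zbtb11-high, and 857 of the 7500 passed. *Zbtb45*, *Zbtb7a* and *Zbtb49* had such a peak, and so did the start of the *Zbtb11* transcript; *Zbtb9* lay just above the limit. The sequences below are from 4 of these peaks (NCBIM37, the build of the files), each the stretch free of annotated exons nearest the centre of the peak, on the strand of the gene. They are shown because these are the family promoters with the highest coverage. The *Zbtb49* stretch lies inside the gene, downstream of its 5′ end at chr5:38611696. Capitals mark CCGGAAG on either strand, the core letters of the site bound by NRF-2/GABP, an ETS-family activator of nuclear genes for mitochondrial proteins.

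*Zbtb45*, chr7:13595172-13595471, - strand, ending at the base before the transcript start: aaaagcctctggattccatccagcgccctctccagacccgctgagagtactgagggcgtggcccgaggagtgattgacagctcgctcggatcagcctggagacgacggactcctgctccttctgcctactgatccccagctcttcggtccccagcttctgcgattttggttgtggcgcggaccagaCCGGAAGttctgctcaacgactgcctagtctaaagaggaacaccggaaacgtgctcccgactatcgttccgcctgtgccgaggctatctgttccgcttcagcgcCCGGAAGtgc
*Zbtb7a*, chr10:80600340-80600639, + strand: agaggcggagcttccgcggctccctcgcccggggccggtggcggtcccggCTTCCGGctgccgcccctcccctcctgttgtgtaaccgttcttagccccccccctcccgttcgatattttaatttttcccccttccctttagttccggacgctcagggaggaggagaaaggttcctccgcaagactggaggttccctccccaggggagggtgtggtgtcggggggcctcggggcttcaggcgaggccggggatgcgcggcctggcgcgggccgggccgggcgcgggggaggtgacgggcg
*Zbtb49*, chr5:38611262-38611561, - strand: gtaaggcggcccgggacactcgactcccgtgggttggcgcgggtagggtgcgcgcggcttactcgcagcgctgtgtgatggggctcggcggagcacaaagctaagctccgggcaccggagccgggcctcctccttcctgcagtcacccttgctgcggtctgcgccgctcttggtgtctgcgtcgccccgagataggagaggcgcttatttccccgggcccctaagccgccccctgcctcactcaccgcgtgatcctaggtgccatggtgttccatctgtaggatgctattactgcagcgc
*Zbtb11*, chr16:55973617-55973916, + strand, ending at the base before the transcript start: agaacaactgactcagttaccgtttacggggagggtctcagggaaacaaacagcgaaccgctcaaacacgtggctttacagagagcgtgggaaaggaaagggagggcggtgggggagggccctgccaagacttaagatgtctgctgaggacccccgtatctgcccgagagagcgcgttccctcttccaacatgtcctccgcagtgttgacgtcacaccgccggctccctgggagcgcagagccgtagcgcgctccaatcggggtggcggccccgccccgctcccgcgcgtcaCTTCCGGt

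The *Zbtb45* stretch held 2 copies of CCGGAAG, the second a few bases before the transcript start. The *Zbtb7a* stretch held 1 copy and so did the *Zbtb11* stretch, whose copy ends next to the start of transcription, while the *Zbtb49* peak held 0 over its whole width. In the central 300 bases of the peaks, CCGGAAG was found in 13 of the 18 promoter peaks of the family (72.2%), in 1614 of the 3944 promoter peaks of tested genes (40.9%) and in 2206 of all 7500 peaks (29.4%). The copy was not limited to strong peaks of the family: 3 of the 4 Zbtb11-high ones held it and 10 of the 14 others. Over all 7500 peaks it was found in 47.8% of the Zbtb11-high ones and in 27.0% of the others. Among the Zbtb11-high promoter peaks of tested genes 381 of 713 held it (53.4%). In the 300 bases from 250 before to 50 after the 5′ end of the gene, whatever the binding, 10 of 34 tested family members held it (29.4%) and 2243 of 14172 tested genes (15.8%). These are matches of letters and no measure of GABP binding.

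Of the 37 rows, 19 had a consensus promoter peak. Among the 34 members with enough reads to be tested, 18 did (52.9%), against 4440 of 14172 tested genes (31.3%). The 18 distinct peaks had a median coverage of 176.0, against 96.3 over the 3944 promoter peaks of tested genes and 71.3 over all 7500. None of the 37 promoters overlapped a peak of the FLAG control, where 38 of 14172 tested genes did (0.268%).

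The highest was *Zbtb7a* (LRF, a repressor of fetal globin genes), with 669.1, 961.8, 637.0 and 1076.8 in the 4 Zbtb11 antibody libraries and 797.9, 750.1 and 350.7 in the 3 FLAG-Zbtb11 libraries (peak chr10:80599890-80601089). Its mean with the Zbtb11 antibody was 836.2 ± 217.0 (SD, n = 4), rank 70 of 7500. This peak lies at an annotated transcript start inside the gene, and outside the promoter of the gene's 5′ end at chr10:80597965. The *Zbtb11* transcript start had 559.1, 755.0, 589.1 and 961.5 with the Zbtb11 antibody and 615.8, 605.3 and 377.0 with FLAG (peak chr16:55973357-55974556), rank 169 of 7500, between those of *Zbtb7a* and *Zbtb45*.

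*Zbtb45*, which has been tied to glial differentiation, had 551.3, 775.9, 483.2 and 920.7 with the Zbtb11 antibody and 698.1, 697.4 and 369.5 with FLAG (peak chr7:13594604-13595803). Its mean was 682.8 ± 202.0 (SD, n = 4), rank 218, and the peak lay at no other gene's promoter. *Zbtb49*, known to act on the p21 cell cycle inhibitor, had a mean of 549.1 ± 106.1 (SD, n = 4), rank 422, at a start it shares with *Lyar*. The third FLAG-Zbtb11 library was the lowest of its 3 at all of these peaks, and the Zbtb11 antibody libraries 2 and 4 were the highest of theirs.

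The remaining promoter peaks formed a gradient. Just above the limit was *Zbtb9*, at 315.6 ± 26.4 (SD, n = 4) in a promoter it shares with *Ggnbp1*, and just under it *Zbtb24*, the gene of a human immunodeficiency and centromere instability syndrome, at 305.8 ± 31.4 (SD, n = 4). These differ by less than the spread of either. *Zbtb6* and *Zbtb26* share a bidirectional promoter with *Rabgap1* and a peak at 256.0, and *Zbtb6* has a second peak at 128.1. *Zbtb3* (237.8), *Zbtb48* (215.1), *Zbtb38* (197.9) and *Zbtb43* (154.1) followed. *Zbtb7b*, *Zbtb37*, *Zbtb17*, *Zbtb34*, *Zbtb41*, *Zbtb5* and the peak shared by *Zbtb1* and *Zbtb25* were at 42.3 to 72.6, under the median of all promoter peaks of tested genes.

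**Figure D1:**
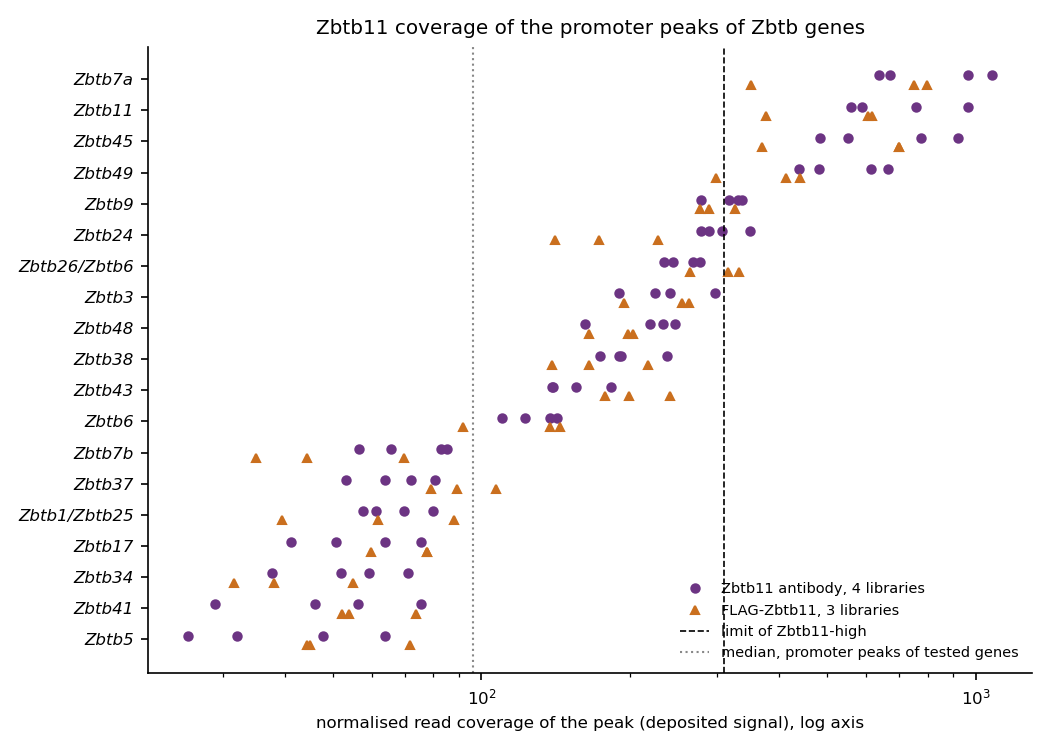
Deposited normalised read coverage (x axis, log scale) of the 18 promoter peaks of Zbtb genes and of the *Zbtb11* transcript start (rows), with 1 point per library. Circles are the 4 Zbtb11 antibody libraries and triangles the 3 FLAG-Zbtb11 libraries; the dashed line is the limit of Zbtb11-high (308.9) and the dotted line the median of promoter peaks of tested genes (96.3). All 4 antibody libraries lie above the limit for *Zbtb7a*, *Zbtb11*, *Zbtb45* and *Zbtb49*, and on both sides of it for *Zbtb9* and *Zbtb24*.

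The 18 rows without a consensus promoter peak had none in the full list of either antibody. They include the most highly expressed member, *Zbtb8a*, whose nearest consensus peak was 42525 bases away, and *Zbtb44* (53668 bases), the methyl-CpG readers *Zbtb33* (Kaiso; 374476 bases) and *Zbtb4* (6712 bases), and *Zbtb2* (43787 bases). Base composition did not follow the peaks within the family: in the 1000 bases around the 5′ end the median GC content was 60.6% for the 18 tested members with a peak and 65.7% for the 16 without, and 13 in each set had an observed to expected CpG ratio above 0.6. Over all tested genes that ratio was exceeded by 79.9% of those with a peak and 59.8% of those without.

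For levels in ESCs, genes were compared as RPKM, CPM per kb of annotated exon. The family was expressed at modest levels. In the EtOH control the 34 tested members had a median of 3.45 RPKM and ranged from 0.32 to 24.1, against a median of 6.26 over 13195 tested protein-coding genes, and 8 of the 34 lay above that median. Only *Zbtb8a* was above the upper quartile of the protein-coding genes, 16.9 RPKM.

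*Zbtb8a* led with 24.1 ± 3.32 RPKM (SD, n = 3), followed by *Zbtb44* with 15.3 ± 1.64 and *Zbtb45* with 13.2 ± 4.30. *Zbtb44* and *Zbtb45* did not differ beyond their spread, since *Zbtb45* ranged from 8.28 to 15.8 RPKM across the replicates. *Zbtb12* (9.96 ± 1.21) and *Zbtb43* (8.68 ± 0.32) came next; their ranges over the 3 libraries overlap, though *Zbtb12* was the higher in each library. Then came *Zbtb25* (8.06 ± 0.40), *Zbtb17* (7.60 ± 0.44), *Zbtb34* (7.47 ± 0.39), *Zbtb24* (6.02 ± 0.39) and *Zbtb22* (5.79 ± 0.46). *Zbtb17* is Miz-1, the DNA-binding partner through which Myc represses genes.

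Among the readers of methylated or CpG-rich DNA, *Zbtb33* had 4.81 ± 0.61 RPKM (SD, n = 3), *Zbtb38* 3.29 ± 0.07 and *Zbtb2* 3.11 ± 0.61, while *Zbtb4* was near the bottom at 0.32 ± 0.11. The chromosome and telomere factors spanned 6.02 (*Zbtb24*), 5.63 (*Zbtb10*), 3.57 (*Zbtb48*, TZAP, which trims telomeres) and 1.64 RPKM (*Zbtb40*). The factors named for blood and immune lineages were not silent as a group. *Zbtb25* had 8.06 and *Zbtb32* 5.69 RPKM, *Zbtb7b* (ThPOK, which sets CD4 T cell fate) 2.14, *Zbtb1* 1.93 and *Zbtb46*, a marker of classical dendritic cells, 1.11. *Zbtb20* had 0.34 RPKM over an annotated exon length of 30730 bases, and *Zbtb16* (PLZF), known for natural killer T cells and germline stem cells, 0.17 RPKM.

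**Figure D2:**
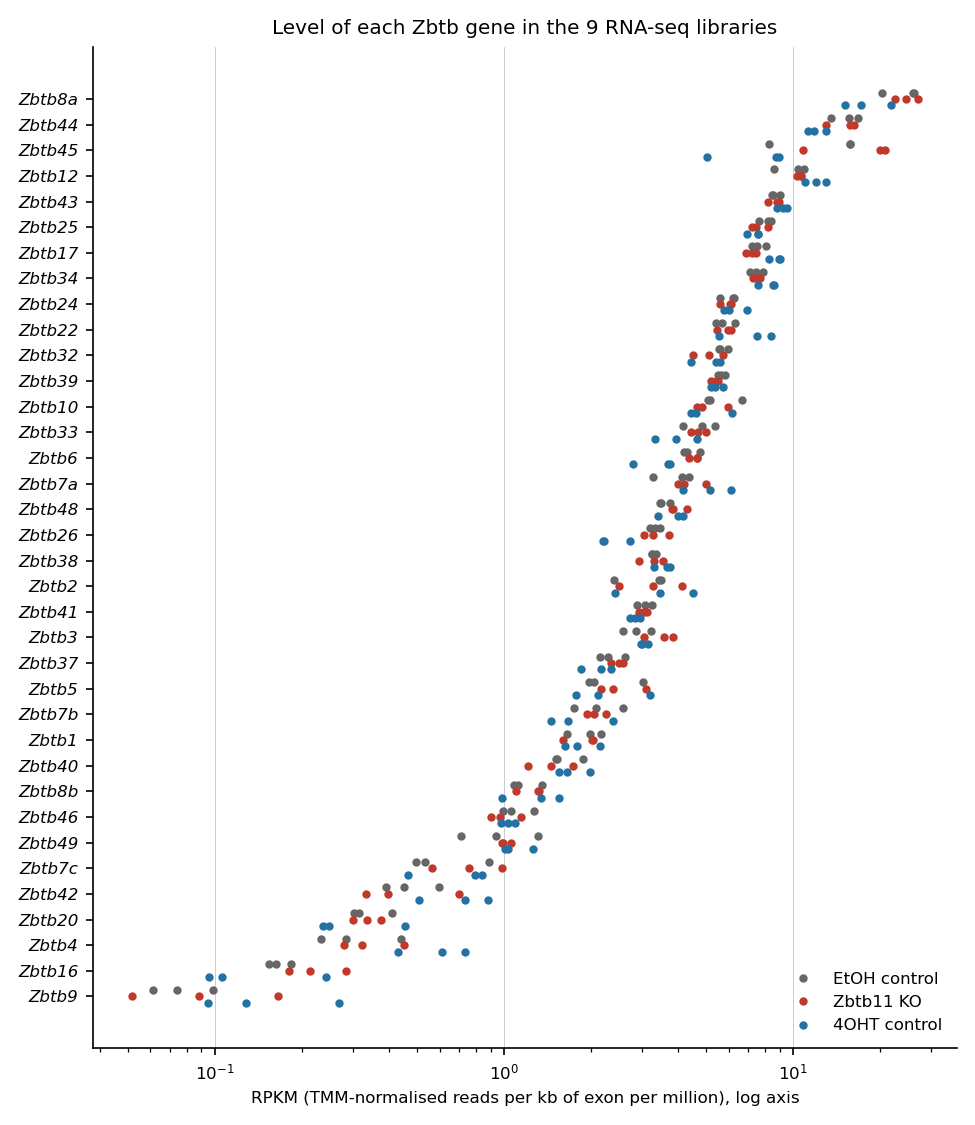
RPKM (x axis, log scale) of the 36 Zbtb rows with reads, in the order of their mean in the EtOH control, with 1 point per library and the 3 groups in colour. *Zbtb8a* is highest at 20.3 to 26.2 RPKM in the EtOH control, and *Zbtb16* and *Zbtb9* are under 0.3 RPKM in every library.

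*Zbtb9* and *Zbtb16* did not pass the count filter, with 3 to 11 and 11 to 25 reads per library. *Zbtb9* shares 98.2% of its exon bases with *Ggnbp1* on the same strand, and reads that fall in both genes are not assigned to either, so its level is uncertain; no value can be given for its response. *Zbtb6* and *Zbtb26* share 435 exon bases on the same strand, and *Zbtb8a* shares 264 with *Zbtb8os* on the opposite strand.

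When *Zbtb11* was deleted, *Zbtb45* was the one member that changed against the EtOH control, and it rose. It had 22.5, 42.9 and 42.7 CPM in replicates 1 to 3 of the EtOH control and 29.4, 54.4 and 56.8 CPM in the *Zbtb11* KO. The *Zbtb11* KO was higher than the EtOH control at each of the 3 replicate numbers, but replicate 1 lay far under the others in both groups, so the groups of 3 overlap. In replicates 2 and 3 the log2 fold change was 0.38 ± 0.07 (SE), 1.30-fold, with an adjusted p of 0.0205 (edgeR quasi-likelihood test, 2 against 2). With all 3 replicates it was again 0.38, at an adjusted p of 1.0 without and 4.2e-04 with the replicate block.

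The call needs all 4 libraries it compares. Without EtOH control replicate 2 the adjusted p of *Zbtb45* was 0.265, without EtOH control replicate 3 it was 0.258, without *Zbtb11* KO replicate 2 it was 0.113 and without *Zbtb11* KO replicate 3 it was 0.267 (edgeR), each with 1 sample left in an arm that is assumed to vary like the other groups. The log2 fold change stayed between 0.35 and 0.42 over the 14 fits made, and 8 of them passed the threshold.

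The count of 1 member in 34 (2.94%) stands beside 212 of 14172 genes called (1.5%), and the direction beside 21 genes called higher (0.148%) and 191 called lower (1.35%). With all 3 replicates and no block, edgeR called 0 of 35 members, and 0 had an unadjusted p under 0.05, beside 0.899% of all genes called; with the block it called 1 of 35, beside 2.25%. The block on replicates 2 and 3 and DESeq2 on them each called 1 of 34, beside 1.45% of all genes for DESeq2, and with no filter on low counts edgeR called 0 of 36, beside 0.787%. Among genes with a Zbtb11-high promoter peak, 870 were tested: 175 were called lower (20.1%) and 18 higher (2.07%), *Zbtb45* among the latter, and their median log2 fold change was -0.06.

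The 2 other tested members with a Zbtb11-high promoter showed no change past the threshold. *Zbtb7a* had 29.7, 28.2 and 22.3 CPM in the EtOH control and 34.1, 28.6 and 27.2 CPM in the *Zbtb11* KO. The *Zbtb11* KO was above the EtOH control at each number, with overlapping groups and a log2 fold change of 0.14 ± 0.13 (SE; edgeR, adjusted p = 0.955), which turned to -0.01 without EtOH control replicate 3. *Zbtb49* had 10.2, 7.30 and 5.49 CPM in the EtOH control and 7.61, 7.69 and 8.23 CPM in the *Zbtb11* KO. Its EtOH control values enclose those of the *Zbtb11* KO, and the log2 fold change in replicates 2 and 3 was 0.31 ± 0.17 (SE; edgeR, adjusted p = 0.870). That value rests on which replicates are used: it was 0.04 ± 0.21 with all 3, 0.07 ± 0.14 with all 3 and the block, 0.13 without EtOH control replicate 3 and 0.54 without EtOH control replicate 2. In the 15 tested members with a weaker promoter peak the log2 fold changes ran from -0.18 to 0.28, with a median of 0.01, and in the 16 with no peak from -0.20 to 0.35, with a median of -0.02.

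**Figure D3:**
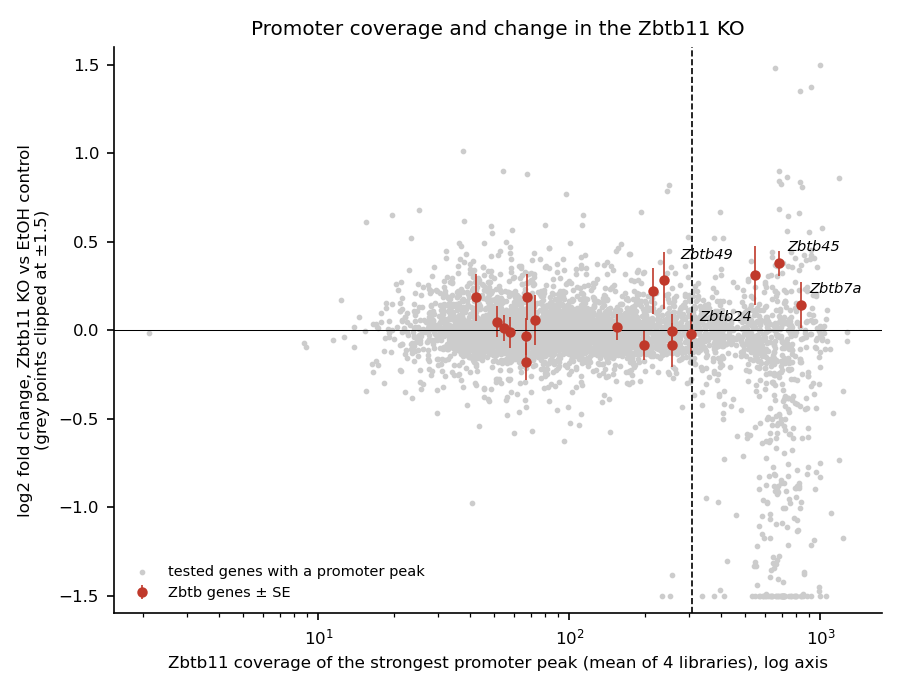
Log2 fold change between the *Zbtb11* KO and the EtOH control in replicates 2 and 3 (y axis) against Zbtb11 coverage of the gene's strongest promoter peak (x axis, log scale), for tested genes with a promoter peak (grey, clipped at ±1.5) and the 18 Zbtb genes among them (red, bars are SE). The dashed line is the Zbtb11-high limit of 308.9. *Zbtb45*, *Zbtb49* and *Zbtb7a* lie to its right at 0.38, 0.31 (0.04 with all 3 replicates) and 0.14, where most of the strongly changed grey genes lie under 0.

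Across the 34 tested members 17 values were above 0 and 17 under it, and the median was 0.00, as over all genes tested. The extremes besides *Zbtb45* were *Zbtb7c* at 0.35 ± 0.27 (SE) and *Zbtb42* at -0.20 ± 0.30, both low in counts and neither past the threshold (edgeR, adjusted p = 0.946 and 0.968). *Zbtb39* and *Zbtb48* were the members whose 3 values in each group did not overlap, which held for 7.35% of all tested genes; *Zbtb39* had 33.40, 32.83 and 34.63 CPM in the EtOH control and 32.31, 32.76 and 30.88 CPM in the *Zbtb11* KO, a log2 fold change of -0.09 ± 0.08. The readers of methylated DNA stayed within -0.09 and 0.22 on the log2 scale (*Zbtb38* and *Zbtb4*), and Miz-1 (*Zbtb17*) was at -0.01 ± 0.09, none past the threshold.

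The 4OHT control against the EtOH control sets wild-type cells on 4OHT against lox/lox ERt2-Cre cells on ethanol, and here *Zbtb45* moved the other way. It had 13.8, 23.8 and 24.4 CPM in the 4OHT control, under the EtOH control of the same number each time, and in replicates 2 and 3 the log2 fold change was -0.82 ± 0.08 (SE; edgeR, adjusted p = 4.9e-05). Replicate 1 of the EtOH control, at 22.5 CPM, lay within the 4OHT control values. With all 3 replicates and no block the adjusted p was 0.251, and with the block 2.0e-08.

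*Zbtb8a* and *Zbtb26* were also lower in the 4OHT control. *Zbtb8a* had 47.1, 60.2 and 60.8 CPM in the EtOH control and 35.2, 40.0 and 50.8 CPM in the 4OHT control; the groups overlap, and each number fell. Its log2 fold change was -0.41 ± 0.10 (SE; edgeR, adjusted p = 0.0172). *Zbtb26* had 17.5, 16.9 and 18.3 CPM against 11.7, 11.6 and 14.4 CPM. These do not overlap, and the log2 fold change was -0.43 ± 0.12 (SE; edgeR, adjusted p = 0.0347). *Zbtb6*, its neighbour with shared exon bases, had -0.27 ± 0.10 (adjusted p = 0.0818).

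*Zbtb4*, *Zbtb22* and *Zbtb34* were higher. *Zbtb4*, which binds methylated CpG, had 3.59, 2.31 and 1.89 CPM in the EtOH control and 5.96, 4.96 and 3.502 CPM in the 4OHT control. Every number rose although the lowest 4OHT control value is under the highest EtOH control value, and the log2 fold change was 1.01 ± 0.24 (SE; edgeR, adjusted p = 0.0132). *Zbtb22*, a gene of the major histocompatibility region, had 15.1, 14.4 and 16.8 CPM against 14.8, 20.1 and 22.5 CPM, so the difference was absent in replicate 1; its log2 fold change in replicates 2 and 3 was 0.45 ± 0.11 (SE; edgeR, adjusted p = 0.0180). *Zbtb34* had 7.86, 7.46 and 7.08 RPKM against 7.57, 8.58 and 8.51 RPKM, again with no rise in replicate 1, and 0.24 ± 0.07 (SE; edgeR, adjusted p = 0.0413).

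In all, 6 of 34 members were called (17.6%), 3 higher and 3 lower, beside 17.1% of all genes tested (8.86% higher and 8.22% lower), so the family changed about as often as genes in general. The 3 values of each group did not overlap for 6 of the 34 members, *Zbtb6*, *Zbtb12*, *Zbtb17*, *Zbtb25*, *Zbtb26* and *Zbtb44*, beside 21.9% of tested genes. The members' median log2 fold change was 0.02 and that of all genes 0.01. None of *Zbtb8a*, *Zbtb4* and *Zbtb22* had a Zbtb11 promoter peak; *Zbtb45*, *Zbtb26* and *Zbtb34* had one. With all 3 replicates and no block edgeR called 0 of 35, with 9 at an unadjusted p under 0.05, beside 4.05% of all genes; with the block it called 12 of 35 (34.3%), beside 33.6%, and DESeq2 on replicates 2 and 3 called 4 of 34, beside 11.9%. The 12 were *Zbtb45*, *Zbtb8a*, *Zbtb26*, *Zbtb4*, *Zbtb22*, *Zbtb44*, *Zbtb6*, *Zbtb33*, *Zbtb7a*, *Zbtb17*, *Zbtb12* and *Zbtb42*. With the block on replicates 2 and 3 it was 11 of 34 (32.4%), beside 27.6%. The count of 6 fell to 2 without EtOH control replicate 2, to 2 without EtOH control replicate 3 and to 3 without 4OHT control replicate 2, and the share of all genes called fell alongside, to 7.39%, 6.1% and 12.4%.

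The 6 calls were not equally stable. Over the 14 fits made, *Zbtb45* passed the threshold in 13, *Zbtb4* and *Zbtb22* in 11 each, *Zbtb8a* in 10, *Zbtb26* in 6 and *Zbtb34* in 4; *Zbtb34* did not pass with all 3 replicates and the block (edgeR, adjusted p = 0.0876). Markers moved in the same comparison. Among 9 ESC markers, the 4OHT control had 3 higher and 2 lower in replicates 2 and 3, beside 17.1% of all genes called. Those higher were *Dppa5a* at 0.63, *Klf4* at 0.51 and *Zfp42* at 0.295 (log2), and those lower *Utf1* at -0.44 and *Nanog* at -0.36. With all 3 replicates and no block 0 of the 9 passed, beside 4.05% of all genes. With the block 4 were higher and 2 lower, beside 33.6%. The sum of the 9 was 4984 to 5330 CPM against 4542 to 4961 CPM in the EtOH control. Of the 3 fibroblast markers with enough reads, *Col1a2*, a fibrillar collagen gene, was lower at -2.17, with 0.665 to 1.03 CPM against 3.03 to 3.28 CPM. *Thy1* was higher at 0.70, while the sums of all 7 overlapped. With all 3 replicates and no block *Col1a2* passed (edgeR, adjusted p = 0.00505) and *Thy1* did not (0.203). Of the 3 tested markers of differentiated derivatives 0 passed. The part of these marker changes in the members' changes was not tested. Between the *Zbtb11* KO and the EtOH control 0 of these 15 tested markers passed.

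**Figure D4:**
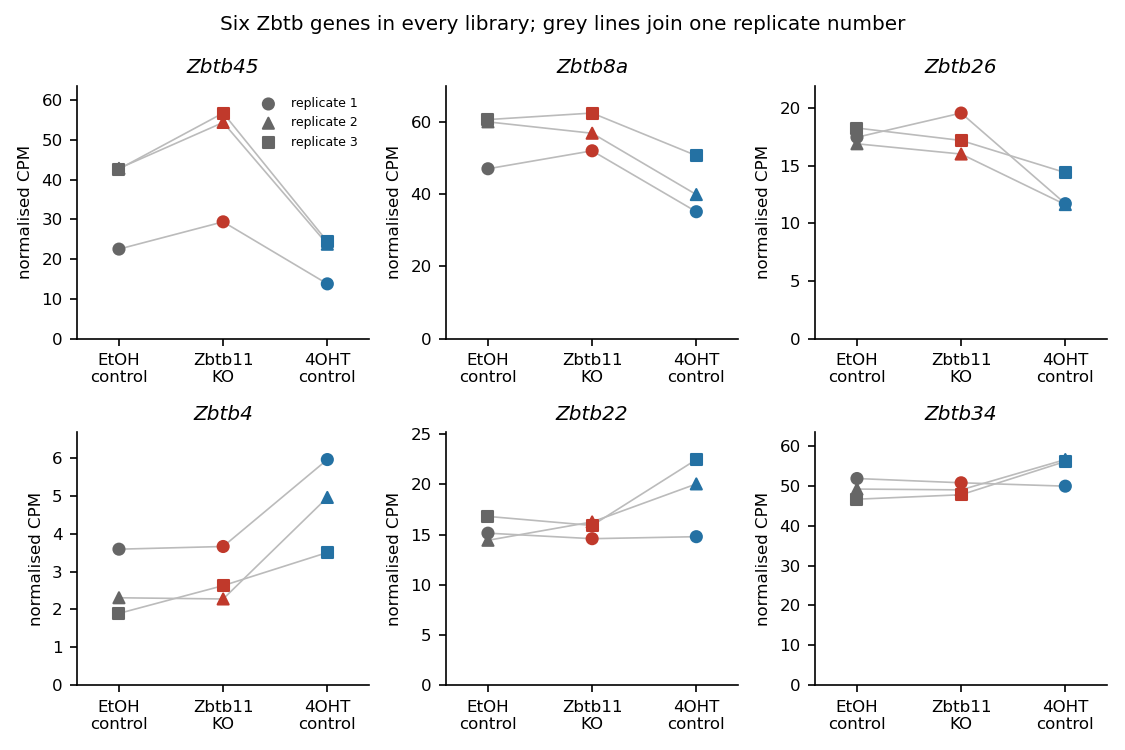
Normalised CPM (y axis, from 0) of the 6 Zbtb genes called between the 4OHT and EtOH controls, in the 3 groups (x axis, colours), with 1 point per library, a marker shape per replicate number and grey lines joining libraries of the same number. *Zbtb45* is highest in the *Zbtb11* KO and lowest in the 4OHT control at each number, with replicate 1 at 22.5, 29.4 and 13.8 CPM under replicates 2 and 3; *Zbtb22* and *Zbtb34* rise in the 4OHT control in replicates 2 and 3 and not in replicate 1.

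In the last comparison, the *Zbtb11* KO against the 4OHT control, both groups received 4OHT, but they are different lines, and each control group also serves in another comparison above, so these values are no independent evidence. *Zbtb45* differed most: its *Zbtb11* KO values, 29.4 to 56.8 CPM, lay above its 4OHT control values, 13.8 to 24.4 CPM, without overlap, which held for 8 of the 34 members and 23.1% of all tested genes. The log2 fold change was 1.20 ± 0.08 (SE; edgeR, adjusted p = 9.3e-07). *Zbtb8a* was higher too, at 52.1, 57.0 and 62.6 CPM against 35.2, 40.0 and 50.8 CPM, without overlap and with a log2 fold change of 0.39 ± 0.10 (SE; edgeR, adjusted p = 0.0192). *Zbtb4* was lower at -0.79 ± 0.23 (adjusted p = 0.0350), *Zbtb22* at -0.41 ± 0.11 (adjusted p = 0.0263) and *Zbtb34* at -0.23 ± 0.07 (adjusted p = 0.0482, edgeR for all). The last of these is the weakest: *Zbtb34* passed in 2 of the 14 fits, with replicates 2 and 3 and with the block on them, and had an adjusted p of 0.0860 with all 3 replicates and the block and 0.410 with all 3 and no block. *Zbtb45* passed in 13, *Zbtb8a* in 11 and *Zbtb4* and *Zbtb22* in 9 each.

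That made 5 of 34 members (14.7%), 2 higher and 3 lower, beside 18.7% of all genes tested (8.38% higher and 10.3% lower); with library sizes in place of TMM scaling there were 3 higher and 2 lower, *Zbtb26* in place of *Zbtb34*, beside 19.6% of all genes, which turned in the same way (10.9% higher and 8.62% lower). The members' median was 0.03 on the log2 scale. With all 3 replicates and no block edgeR called 0 of 35, with 7 at an unadjusted p under 0.05, beside 6.45% of all genes, where *Zbtb45* had an adjusted p of 0.0770; with the block it called 12 of 35 (34.3%), beside 34.9%: *Zbtb45*, *Zbtb8a*, *Zbtb4*, *Zbtb22*, *Zbtb26*, *Zbtb6*, *Zbtb7a*, *Zbtb17*, *Zbtb33*, *Zbtb40*, *Zbtb42* and *Zbtb44*. With the block on replicates 2 and 3 it called 14 of 34 (41.2%), beside 29.5%. DESeq2 on replicates 2 and 3 called 2 of 34, *Zbtb45* and *Zbtb8a*, beside 13.5%. The count of 5 fell to 2 without *Zbtb11* KO replicate 2, to 1 without *Zbtb11* KO replicate 3 and to 3 without 4OHT control replicate 2, beside 10%, 8.83% and 16.3% of all genes, and *Zbtb45* was among those called each time. Of the 9 ESC markers 1 was higher and 4 were lower in the *Zbtb11* KO in replicates 2 and 3. With all 3 replicates and no block 0 of the 9 passed, and with the block 2 were higher and 6 lower. *Col1a2* was higher at 2.10 (log2) and *Thy1* lower at -0.61, and with all 3 replicates and no block *Col1a2* passed and *Thy1* did not.

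Side by side, the log2 fold changes of *Zbtb8a* were -0.02 ± 0.10 (SE) in the *Zbtb11* KO against the EtOH control and -0.41 ± 0.10 in the 4OHT control against the EtOH control. Those of *Zbtb4* were 0.22 ± 0.26 and 1.01 ± 0.24, of *Zbtb22* 0.04 ± 0.12 and 0.45 ± 0.11, of *Zbtb26* -0.08 ± 0.12 and -0.43 ± 0.12, and of *Zbtb34* 0.01 ± 0.07 and 0.24 ± 0.07. These 5 members passed the threshold in the second and not in the first, while *Zbtb45* passed in both; both use the EtOH control, and the difference between them is what the comparison of the *Zbtb11* KO with the 4OHT control tests. In that test *Zbtb26* did not pass in replicates 2 and 3 (0.345 ± 0.125, edgeR, adjusted p = 0.0756) and passed with all 3 and the block (adjusted p = 6.5e-04), while *Zbtb34* passed in the first and not in the second.

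**Figure D5:**
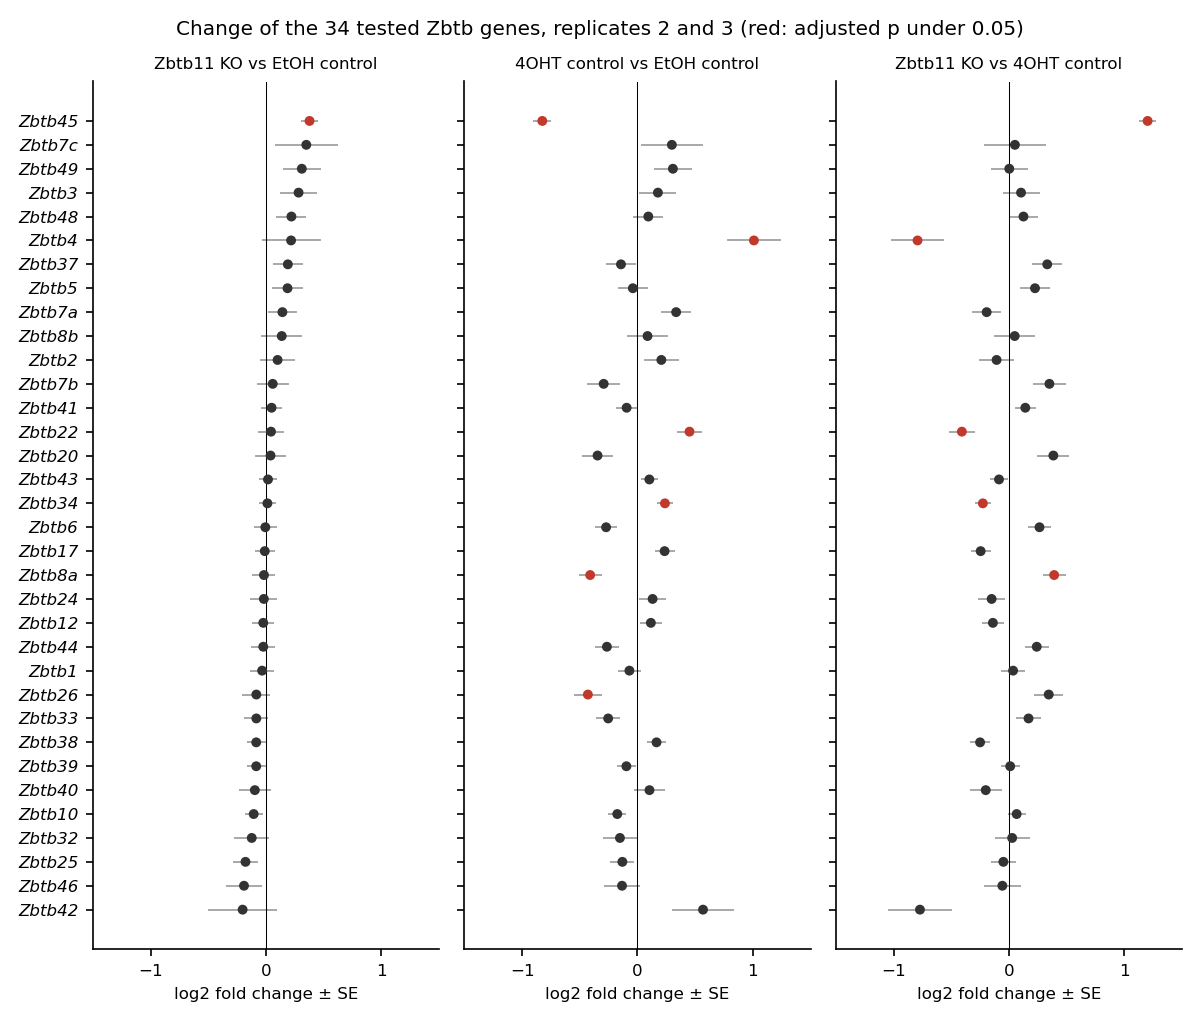
Log2 fold change ± SE (x axis) of the 34 tested Zbtb genes (rows, in the order of the first panel) in the 3 comparisons, from replicates 2 and 3; red points have an adjusted p under 0.05. In the first panel *Zbtb45* alone is red, at 0.38; in the second 6 genes are red, from -0.82 (*Zbtb45*) to 1.01 (*Zbtb4*), and in the third 5, from -0.79 (*Zbtb4*) to 1.20 (*Zbtb45*).

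BTB zinc-finger genes filed under other symbols were also compared. Of 13 symbols listed, 11 had a row and were tested, and edgeR called 0 of them between the *Zbtb11* KO and the EtOH control in replicates 2 and 3, in all 3 replicates and with the block. The largest value was 0.50 ± 0.25 (SE) for *Hic1*, a tumour suppressor (adjusted p = 0.831), and the median was -0.08. *Hic2* was the one with a Zbtb11-high promoter, at 326.0, and had -0.08 ± 0.10. Between the *Zbtb11* KO and the 4OHT control 2 were lower in replicates 2 and 3, *Gzf1* at -0.31 ± 0.08 and *Zfp295* at -0.27 ± 0.08 (edgeR, adjusted p = 0.0222 and 0.0317). These 2 of 11 stand beside the 18.7% of all genes; both passed with all 3 replicates and the block (adjusted p = 0.00563 and 0.00992) and neither without the block (0.662 and 0.401).

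The co-factors that BTB domains recruit, with Myc and Max as partners of Miz-1, numbered 17, and edgeR called 0 of them between the *Zbtb11* KO and the EtOH control in the same 3 fits. *Ncor1*, a co-repressor with a Zbtb11-high promoter at 656.3, had -0.10 ± 0.07 (SE; adjusted p = 0.919). The largest size was 0.14, for *Sin3b* (0.14 ± 0.08) and *Cul3* (-0.14 ± 0.06), a ubiquitin ligase scaffold. Between the 4OHT and EtOH controls 3 of the 17 were called in replicates 2 and 3: *Bcorl1*, a co-repressor, rose by 0.58 ± 0.11, *Myc* was at -0.37 ± 0.09 and *Chd4*, the remodelling enzyme of NuRD, at -0.24 ± 0.07 (edgeR, adjusted p = 0.0034, 0.0121 and 0.0334). That is about the share of all genes, 17.1%. The block with all 3 replicates kept all of them past the threshold, and without it *Bcorl1* passed (adjusted p = 0.0209) but not *Myc* (0.852) or *Chd4* (0.389).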

How the data were processed

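Per the labels and the study's methods, RNA was sequenced as directional rRNA-depleted paired-end libraries, reads were aligned with STAR and the authors deposited HTSeq read counts per gene (GENCODE vM1, NCBIM37/mm9), not normalized; HTSeq's strand setting is not given in the sources used here. ChIP reads were aligned with Bowtie 1.1.2 and peaks called with MACS2. The authors deposited peak lists and, for 7500 consensus peaks, a normalised read coverage (signal) per library from DiffBind. The study's methods give a minimum number of reads per ChIP library, and the depth of each library is unknown. Input libraries were not analysed here, and the deposited mean columns were not used.

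Genes above 1 CPM in at least 2 libraries (3 with all replicates) entered edgeR's quasi-likelihood F test (edgeR 4.0.16 in R 4.3.3, TMM scaling, replicates 2 and 3 of all 3 groups in one fit, Benjamini-Hochberg over all genes, threshold 0.05), and with DESeq2 1.42.0 as an alternative; SEs are the log2 fold change over the root of F. The edgeR script was tested on simulated data. CPM and RPKM use TMM factors over all 9 libraries and the union of exons. The percentage of reads outside genes was 25.3 to 31.6. Same-numbered libraries deviated together from their group means (r = 0.43 to 0.82 over 9 pairs, and -0.753 to 0.526 over 18 differently numbered pairs). The ranges overlap: EtOH control replicate 2 had r = 0.43 with 4OHT control replicate 2 and 0.526 with 4OHT control replicate 3. The numbers thus pair the replicate 1 libraries, and the pairing of replicates 2 and 3 is less clear. Fits with the replicate block stand beside the results they change. Genes named in the text are those called in any comparison, those with a Zbtb11-high promoter peak, the 10 highest in the EtOH control, the row with no read, the largest rise and fall of each comparison, *Rpl24*, and examples by role from fixed lists; *Zbtb39*, *Zbtb48* and *Zbtb7c* were singled out after their values were seen. The members and lists were chosen with earlier results of these data known. Sequences were read from NCBIM37.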

Additional observations from a re-analysis of the deposited data

How the results depend on the processing

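The number of members called depended on the replicates and the block. With all 3 replicates and no block it was 0 in each of the 3 comparisons. With the replicate block it was 12 (all 3 replicates) and 11 (replicates 2 and 3) for the 4OHT control against the EtOH control, and 12 and 14 for the *Zbtb11* KO against the 4OHT control, beside 33.6%, 27.6%, 34.9% and 29.5% of all genes; for the *Zbtb11* KO against the EtOH control the block kept the count of 1. With no filter on low counts the *Zbtb11* KO against EtOH control count was 0 (*Zbtb45* at an adjusted p of 0.0509, edgeR, more genes being tested), and DESeq2 gave 2 for the *Zbtb11* KO against the 4OHT control. Leaving out 1 library at a time gave 0 to 1, 2 to 8 and 1 to 6 members in the 3 comparisons. Among the fits that left out 1 library, the lowest and highest counts of each comparison came with the lowest and highest shares of all genes called. The block fits did not follow this order for the *Zbtb11* KO against the 4OHT control, where 14 members stood beside 29.5% and 12 beside 34.9%.

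The members' median log2 fold change moved little in size: with library sizes in place of TMM it was 0.0495 (*Zbtb11* KO against EtOH control) and 0.0709 (*Zbtb11* KO against 4OHT control), with all 3 replicates 0.0070 without and -0.0003 with the block (4OHT control against EtOH control), and without 1 library -0.0016 to 0.0361, -0.0303 to 0.0233 and 0.0112 to 0.0385. Over the 13 alternatives the log2 fold change took another sign in at least 1 for 19 of 34 members in the *Zbtb11* KO against the EtOH control, all at 0.142 or less in size, for 8 in the 4OHT control against the EtOH control (0.298 or less) and for 10 in the *Zbtb11* KO against the 4OHT control (0.107 or less), and 0 of these were called. Of the members called or most changed in the same comparison, and of the Zbtb11-high ones, only *Zbtb7a* and *Zbtb49* did so. *Zbtb7a* did in the *Zbtb11* KO against the EtOH control, at -0.012 without EtOH control replicate 3 and up to 0.324 without another library. *Zbtb49* did in the *Zbtb11* KO against the 4OHT control, at -0.118 with all 3 replicates and -0.107 with the block. With 1 library left out it was at -0.042 to 0.049, -0.001 among them. The cause was not tested. The number of members with a promoter peak was 4 with Zbtb11-high peaks only and 16 to 19 otherwise. The median coverage of their peaks stayed between 169.2 and 181.9. Beyond the calls given, the block changed no call in the *Zbtb11* KO against the EtOH control. With 2 libraries a group, small changes of genes at a few CPM could not be resolved.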

Other observations

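Replicate 1 differed from replicates 2 and 3 for some Zbtb genes in all 3 groups at once, less often than over all tested genes. In 8 of the 34 tested members replicate 1 was the highest of the 3 in every group (23.5%, beside 29.1% of all tested genes), and in 5 it was the lowest (14.7%, beside 29.9%). The lowest were *Zbtb45*, *Zbtb2*, *Zbtb8a*, *Zbtb33* and *Zbtb1*; the highest were *Zbtb4*, *Zbtb5*, *Zbtb10*, *Zbtb7a*, *Zbtb7b*, *Zbtb7c*, *Zbtb20* and *Zbtb42*. For *Zbtb45* the log2 ratio of replicate 1 to the mean of replicates 2 and 3 was -0.93 in the EtOH control, -0.92 in the *Zbtb11* KO and -0.81 in the 4OHT control, larger in size than its change between the *Zbtb11* KO and the EtOH control. For *Zbtb2*, a CpG island binder of ESCs, these ratios were -0.53, -0.57 and -0.72, and for *Zbtb5* 0.59, 0.45 and 0.72. Replicates of a group have no order, and this split was not tested.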
